A study of Mus musculus with 2 samples.

Results

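The S100 genes described here are *S100a1*, *S100a13*, *S100a4*, *S100a6*, *S100a10* and *S100a11*, 6 of the 54838 genes in the count matrices of sorted sciatic nerve macrophages. They were chosen by name with earlier results of these data known, selected on their measured levels and ratios between the libraries, so the levels and ratios given here are a description and no test was made on them. All 6 had UMIs in both libraries and none was lost to a filter on low values. The mice were Flt3-Cre LSL-YFP fl/fl, in which YFP marks cells that descend from a stage with Flt3-driven Cre. The study takes the YFP+ fraction to be HSC-derived and the YFP− fraction to be of embryonic origin. Sciatic nerves of 19 male mice aged 10 to 12 weeks were pooled, CD64+ CD45int macrophages were sorted by YFP, and each fraction became 1 library on the 10× Chromium v2 platform. With 1 library of pooled animals per group there are no replicates and no p-values, and a difference between the libraries cannot be told apart from a difference between sorts or lanes. Values in parentheses are 95% intervals (exact Poisson for levels, exact binomial for shares and for log2 ratios) that cover counting error only.

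S100 proteins are small calcium-binding proteins of the EF-hand type that act mostly as dimers and change shape when calcium rises, which lets them bind target proteins. *S100a10* is the exception, since its protein no longer binds calcium and is held in a complex with annexin A2 that binds plasminogen at the cell surface. In myeloid cells the family is best known for *S100a8* and *S100a9*, the calprotectin subunits of neutrophils and monocytes, while *S100a4* and *S100a6* are linked to motility and to growth.

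Cells were barcodes with at least 500 UMIs and 200 genes, where a UMI stands for 1 captured RNA molecule. The YFP− library gave 1045 cells with 2418044 UMIs and the YFP+ library 4053 cells with 6747554 UMIs, at medians of 2233 and 1484 UMIs a cell, and 7 barcodes were called in both. Levels are CPM, the UMIs of a gene summed over cells and scaled to a total of 1 M, and 3 UMIs correspond to 1.24 CPM for the YFP− library and 0.445 CPM for the YFP+ library. All 11 macrophage markers were detected, at sums of 31213 CPM (YFP−) and 31875 CPM (YFP+), while 5 of 7 neutrophil markers were at 0. Among YFP− cells 34.1% held at least 2 UMIs of markers of other cell types, against 23.7% among YFP+ cells. These shares used all UMIs of a cell, and the YFP− cells were deeper, so they do not compare foreign RNA between the libraries. Nor are they shares of cells with foreign RNA. *Pmp22*, a Schwann cell marker of the list, was at 347 CPM (YFP−) and 313 CPM (YFP+). *Egfl7*, an endothelial marker, was a leading gene of cluster 2 (described below), at 101 CPM. The source of these UMIs was not tested. Summed fibroblast and mural cell markers were at 71.5 and 10.3 CPM (YFP−) and higher, at 171 and 117 CPM, for YFP+. Summed Schwann and endothelial cell markers were at 711 and 91.8 CPM (YFP−) and lower, at 656 and 62.2 CPM, for YFP+. RNA outside cells, or free RNA, was read from barcodes with 10 to 100 UMIs.

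All 6 genes lie on chromosome 3 of GRCm38. The GENCODE M21 annotation places 12 of the 14 S100 genes of this chromosome in a block of 185 kb, and *S100a11* and *S100a10* in a second block that starts 2.82 Mb further along. In the first block, *S100a1* (chr3:90511034-90514392, minus strand) and *S100a13* (chr3:90514435-90524581, plus strand) stand head to head, with 42 bases between their starts. *S100a4* (chr3:90603771-90606045) and *S100a6* (chr3:90612882-90624181) lie on the plus strand with 6836 bases between them. In the second block, *S100a11* (chr3:93520488-93526287) and *S100a10* (chr3:93555080-93564643) lie on the plus strand with 28792 bases between them.

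Sequences before the start are shown for *S100a11* of the second block and for the neighbours *S100a4* and *S100a6*. The UMIs of these neighbours occurred together in cells more often than independence gives (below). Sequences also include the gap shared by *S100a1* and *S100a13*, a pair without such an excess. They are RefSeq sequences of GRCm38.p6 on the strand of the gene (the plus strand for the gap), and a base is counted back from −1 at the RefSeq start, which need not be the GENCODE start. The starts differ most for *S100a1*, whose window begins inside the GENCODE gene. Capitals mark matches to any of 6 motifs searched on both strands in the 250 bases before and 50 bases after the start. These were the TATA box with the letters TATAAA, the CCAAT box with CCAAT, the GC box with GGGCGG, the AP-1 site with TGANTCA, the PU.1 core with GAGGAA and the C/EBP site with TTGCNNAA. No entry was matched for *S100a10*.
S100a4, chr3:90603520-90603769: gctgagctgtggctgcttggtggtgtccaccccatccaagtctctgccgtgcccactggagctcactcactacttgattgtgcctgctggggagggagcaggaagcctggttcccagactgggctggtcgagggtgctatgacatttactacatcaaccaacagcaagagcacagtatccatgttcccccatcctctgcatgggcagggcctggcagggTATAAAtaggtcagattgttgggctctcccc
S100a6, chr3:90612644-90612893: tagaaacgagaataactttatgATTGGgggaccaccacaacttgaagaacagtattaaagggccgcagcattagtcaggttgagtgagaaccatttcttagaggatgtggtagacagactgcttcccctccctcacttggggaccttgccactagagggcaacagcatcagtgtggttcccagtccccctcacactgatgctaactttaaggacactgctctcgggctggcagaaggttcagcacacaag
S100a11, chr3:93520246-93520495: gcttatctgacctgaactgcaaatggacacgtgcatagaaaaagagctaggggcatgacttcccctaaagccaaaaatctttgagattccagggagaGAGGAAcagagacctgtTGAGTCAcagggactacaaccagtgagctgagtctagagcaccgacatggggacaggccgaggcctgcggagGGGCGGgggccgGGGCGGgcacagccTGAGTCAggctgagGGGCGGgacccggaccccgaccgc
S100a1 to S100a13, chr3:90514393-90514434: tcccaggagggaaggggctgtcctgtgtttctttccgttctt

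The *S100a4* window held a TATAAA that begins at −31, a motif present in 13.6% of the 32851 promoters in the table. A CCAAT on the opposite strand stood at −228 of *S100a6*, and 37.4% of promoters hold one. The *S100a11* window held 3 GC boxes, at −64, −52 and −24, and AP-1 letters at −136 and −38, where 35.7% and 7.81% of promoters hold at least 1 such motif. It also held the PU.1 core at −153, and *S100a4* held that core after its start, as 28.3% of promoters do in either part. The windows of *S100a1* and *S100a13* held none of the 6 motifs. A match is a description of letters and was not tied to a level.

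*S100a4* and *S100a6* were higher in YFP+ macrophages and the other 4 genes differed by less. *S100a4*, whose protein binds non-muscle myosin, had 110 UMIs in YFP− cells, or 45.5 CPM (37.4–54.8), and 838 UMIs in YFP+ cells, or 124 CPM (116–133). Its log2 ratio, taken here and below as YFP+ over YFP−, was 1.43 (1.15–1.72). *S100a6*, or calcyclin, stood at 159 CPM (144–176) without YFP and at 377 CPM (363–392) with YFP, a log2 ratio of 1.24 (1.08–1.40). Of the 6 genes, 2 were thus at least 1.5-fold higher in YFP+ cells, as were 1.54% of the 5531 genes with a mean of at least 20 CPM, and 0 were at least 1.5-fold lower, as were 5.77% of all. Nothing is read from these counts, since the genes were chosen with the ratios known.

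*S100a10* stood at 258 CPM (238–279) for YFP− and at 327 CPM (313–341) for YFP+, a log2 ratio of 0.34 (0.21–0.47). *S100a11*, whose protein binds annexin A1, was at 119 CPM (106–134) and 157 CPM (148–167), a log2 ratio of 0.40 (0.21–0.59). The head-to-head pair showed no difference detectable at this depth. *S100a1* had 120.3 CPM (107–135) for YFP− against 122 CPM (113–130.3) for YFP+, a log2 ratio of 0.02 (−0.18 to 0.21). *S100a13*, whose protein takes part in the export of proteins without a signal peptide, was at 194 CPM (176–212) and 199 CPM (189–210.0), a log2 ratio of 0.04 (−0.11 to 0.19). The median log2 ratio of the 6 genes was 0.37, beside −0.00 over all 5531 genes. Nothing is read from this difference either, since the genes were chosen with the ratios known.

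Free RNA held every one of the 6 genes at a higher CPM than the cells did, within counting error for *S100a11* of the YFP− library. In YFP− and YFP+ free RNA, *S100a6* was at 297 and 603 CPM and *S100a4* at 72.6 and 155 CPM. The difference between the libraries was thus also present outside cells, with log2 ratios of 1.02 (0.83–1.22) for *S100a6* and 1.08 (0.70–1.48) for *S100a4*. Removing 10% of the UMIs of cells in the proportions of free RNA gave log2 ratios of 1.28 for *S100a6* and 1.49 for *S100a4*. The part of free RNA in the ratios was not tested beyond this.

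**Figure D1:**
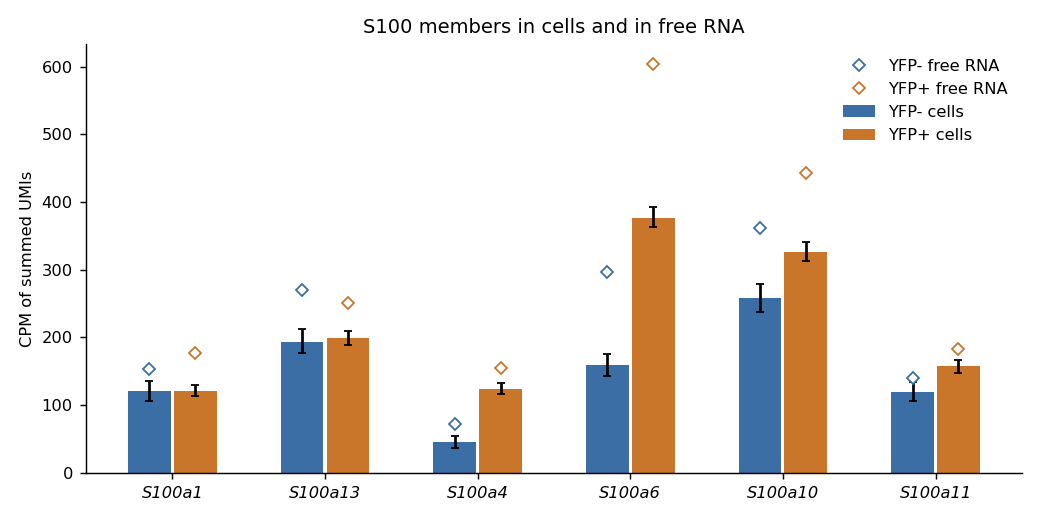
CPM of each S100 gene (vertical axis) in YFP− and YFP+ cells (bars, with 95% counting intervals) and in free RNA of the same libraries (open diamonds). The YFP+ bar is well above the YFP− bar for *S100a4* (124 against 45.5 CPM) and *S100a6* (377 against 159 CPM), and the diamonds lie above the bars.

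The ratios of *S100a4* and *S100a6* varied with the depth of the cells. Among cells with 500 to 1000 UMIs, 150 YFP− and 1184 YFP+ cells, *S100a4* was at 96.7 and 103 CPM, a log2 ratio of 0.09 (−0.81 to 1.13). *S100a6* was at 413 and 369.8 CPM there, a log2 ratio of −0.16 (−0.60 to 0.31), so neither gene differed detectably in the shallowest cells. Among cells with 1000 to 2000 UMIs, *S100a4* was at 37.4 and 100.1 CPM and *S100a6* at 124 and 321 CPM, log2 ratios of 1.40 (0.68–2.20) and 1.37 (0.96–1.79). The ratios were 1.77 and 1.43 at 2000 to 4000 UMIs, and 1.89 and 1.75 at 4000 UMIs or more.

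Cluster 9, described below, carries RNA of mural cells, Schwann cells and fibroblasts. Of the 47 *S100a6* UMIs in shallow YFP− cells, only 22 remained once the cells of this cluster were left out. *S100a6* was then at 204 and 309 CPM in the shallowest cells, a log2 ratio of 0.60 (−0.03 to 1.29). *S100a4* stayed at 0.09 (−0.85 to 1.19) without these cells. The ranges of depth and the omission of cluster 9 were chosen after seeing the data.

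**Figure D2:**
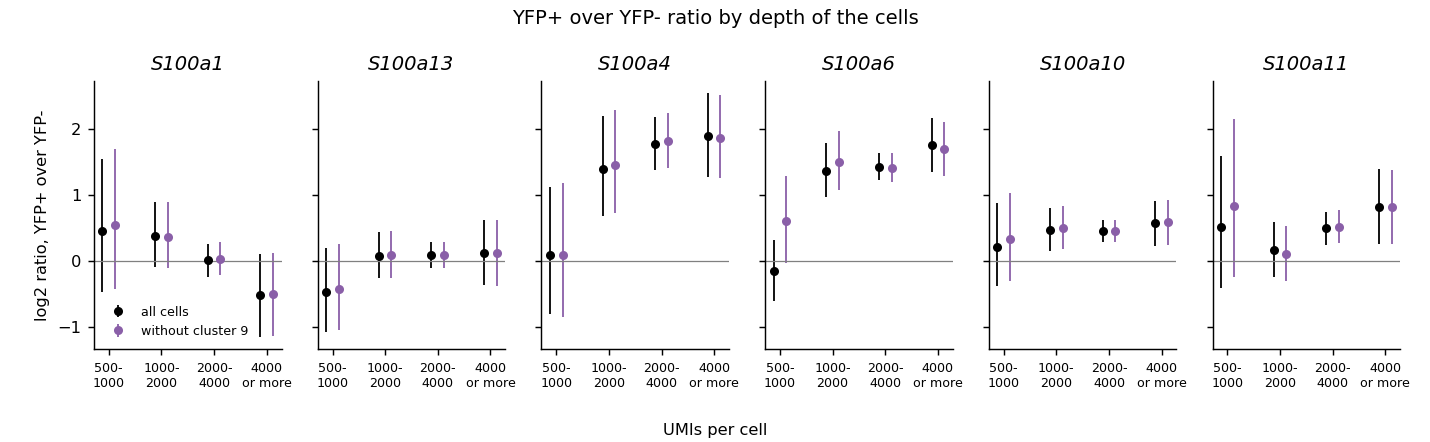
Log2 ratio of YFP+ over YFP− CPM (vertical axis) in 4 ranges of UMIs per cell (horizontal axis), for all cells (black) and without cluster 9 (purple), with 95% counting intervals. For *S100a4* and *S100a6* the ratio is near 0 or has an interval that holds 0 at 500 to 1000 UMIs, and is 1.37 or more in the deeper cells.

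Single cells held few UMIs of these genes. After each cell was thinned to 500 UMIs, the share with a *S100a6* UMI was 5.74% (4.41–7.33) without YFP and 12.6% (11.6–13.7) with YFP, and before thinning 15.1% and 25.7%. For *S100a4* the shares were 2.01% (1.25–3.06) and 4.59% (3.97–5.28), and before thinning 6.32% and 12.3%. Barcodes made only of free RNA would show a *S100a6* UMI in 13.8% and 26.0% of cases and a *S100a4* UMI in 3.56% and 7.45%. The thinned shares of all 6 genes lay below the free RNA value of their library, within counting error for *S100a11* in YFP− cells, so they are not read as shares of expressing cells.

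The UMIs of *S100a6* were nonetheless unevenly spread. Its variance over mean in thinned cells was 1.74 in both libraries, where an even draw gives about 1, and YFP+ cells with a UMI (12.6%) were fewer than the 16.2% an even draw at the same mean gives. For *S100a4* the variance over mean was 1.15 in YFP− and 1.36 in YFP+ cells. The other 4 genes had values between 1.005 and 1.18, and in YFP− cells *S100a1* (1.18) and *S100a10* (1.17) were at or above *S100a4*.

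Clustering of both libraries without any S100 gene gave 10 clusters, which are named here by number and leading genes. *S100a6* and *S100a4* differed between them by far more than counting error. Cluster 3 (781 cells), led by *Lgals3*, *Ccr2*, *Tppp3* and *Anxa2*, held *S100a6* at 751 CPM (709–796) and *S100a4* at 233 CPM (209–258). Cluster 7 (191 cells), led by *Cd209g*, *Cd209f*, *Fcna* and *Ccl8*, held *S100a6* at 578 CPM (499–667) and *S100a4* at 303 CPM (246–369). Cluster 10 (74 cells), led by the mitotic genes *Top2a*, *Birc5* and *Nusap1*, held them at 457 CPM (375–551) and 318 CPM (251–399). These levels pool both libraries, which had unlike shares in the clusters. The pooled intervals of these 3 clusters overlapped for *S100a4*, while for *S100a6* cluster 3 lay above clusters 7 and 10. Within each library the *S100a6* intervals of clusters 3 and 7 overlapped. They were at 783 CPM (736–831) and 680 CPM (571–804) in YFP+ cells, and at 543 CPM (446–656) and 414 CPM (310–544) in YFP− cells.

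At the low end stood cluster 5 (625 cells), led by *Tslp*, with *S100a6* at 105 CPM (88.5–123) and *S100a4* at 20.97 CPM (14.04–30.1), and cluster 2 (831 cells), led by *Cyr61*, *Tcim* and *Gpx3*, with 113 CPM (97.49–129) and 32.5 CPM (24.7–42.0). Clusters 2 and 5 did not differ in either gene beyond their intervals. Cluster 4 (669 cells), led by *Il1b* and *Cxcl2*, was between, with *S100a6* at 296 CPM (269–326) and *S100a4* at 106 CPM (90.5–124). The log2 ratio of the highest over the lowest cluster was 3.86 (3.25–4.50) for *S100a4*, cluster 10 over cluster 5. Both clusters were picked by these levels, a choice that the interval does not cover here or for the other genes.

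*S100a10* was high in the same clusters as *S100a4*, in an order unlike that of *S100a6*. It was highest in cluster 7 at 872 CPM (773–979) and cluster 10 at 775 CPM (668–895), which overlapped, and then at 446 CPM (413–480) in cluster 3. The other clusters held it between 161 and 261 CPM. *S100a13* was also highest in cluster 7, at 333 CPM (274–402), with 162 CPM (131–198) in cluster 6, led by *Gm28661* and *mt-Co2*, as the lowest. *S100a1* ranged from 76.9 CPM (38.4–138) in cluster 9, from 11 UMIs, to 177 CPM in cluster 7, a log2 ratio of 1.196 (0.26–2.26). Without cluster 9 this log2 ratio was 0.96 (0.24–1.71). The highest and lowest clusters were picked by these same levels, so nothing is read from an interval above 0. *S100a11* ranged from 88.9 CPM (66.4–117) in cluster 6 to 196 CPM (174–219) in cluster 3, apart from cluster 9.

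Cluster 9 (98 cells, median of 950 UMIs), led by *Myl9*, *Myh11* and *Tagln* of smooth muscle, held *S100a6* at 1579 CPM (1380–1799) and *S100a11* at 384 CPM (290–500.3), above every other cluster. Of its cells, 92.9% held at least 2 UMIs of markers of other cell types. Summed fibroblast markers were at 4654 CPM there against 73.4 CPM in other cells, and summed mural cell markers at 5220 against 7.65 CPM. *S100b*, the family member of Schwann cells, was at 608 CPM there and at 3.06 to 8.55 CPM elsewhere. Cluster 9 gave 10.6% of the *S100a6* UMIs of YFP− cells and 7.27% of those of YFP+ cells. Without it, the log2 ratio between the libraries was 1.31 (1.14–1.47) for *S100a6*, and the highest over the lowest cluster was 2.83 (2.58–3.09). Without every cell that had at least 2 UMIs of markers of other cell types, the YFP ratio was 1.28 (1.07–1.504) for *S100a6* and 1.25 (0.87–1.64) for *S100a4*. Whether the cells left out carried foreign RNA was not tested.

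**Figure D3:**
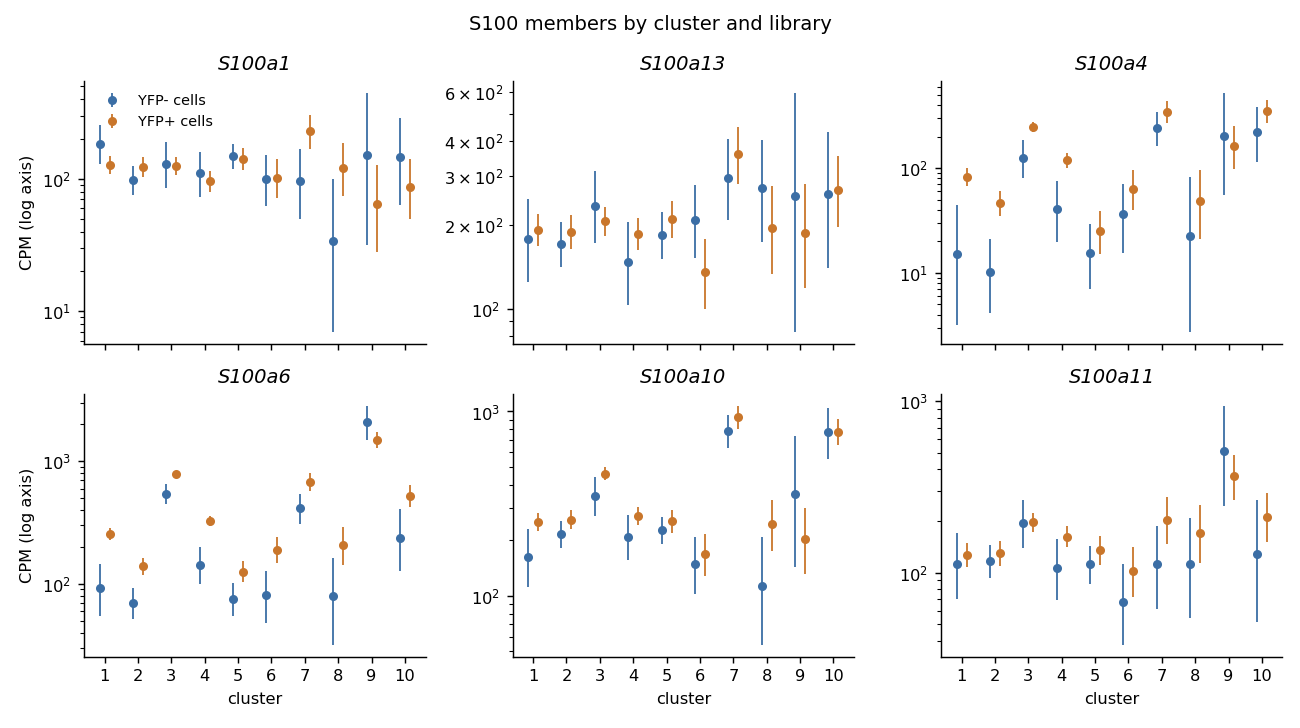
CPM of each S100 gene (vertical axis, log scale, own range in each panel) in 10 clusters (horizontal axis) of YFP− and YFP+ cells, with 95% counting intervals. *S100a4*, *S100a6* and *S100a10* are high in clusters 3, 7 and 10, *S100a6* and *S100a11* peak in cluster 9, and the YFP+ points of *S100a6* lie above the YFP− points in 9 of 10 clusters.

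Within clusters, *S100a6* was higher in YFP+ cells in 9 of 10, each with an interval above 0, from a log2 ratio of 0.53 (0.24–0.82) in cluster 3 to 1.47 (0.80–2.24) in cluster 1, led by *Fhl3*, *Slc39a1* and *Notch2*. In cluster 9 it was at 2086 CPM in 13 YFP− cells and at 1499 CPM in 85 YFP+ cells, a log2 ratio of −0.48 (−0.97 to 0.05). *S100a4* was higher with an interval above 0 in 4 clusters, numbers 1 to 4, such as 10.2 against 46.3 CPM in cluster 2 and 125 against 249 CPM in cluster 3. *S100a10* was higher with an interval above 0 in 3 of 10 clusters and *S100a11* in 1. The clusters are parts of the same 2 libraries, so these counts are not repeats of the comparison. When the clusters were given the same weight in both libraries, the log2 ratio of *S100a6* was 0.70 and that of *S100a4* 1.09. This weighting was chosen after seeing the data.

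Cells were then split by a UMI of genes outside the family. *Ccr2*, the chemokine receptor of monocytes and their progeny, had a UMI among 500 in 33 YFP− and 489 YFP+ cells. In YFP+ cells, those with a *Ccr2* UMI held *S100a6* at 700.4 CPM and those without at 330.5 CPM, a log2 ratio of 1.08 (0.95–1.21). *S100a4* was at 231 and 109 CPM, also a log2 ratio of 1.08 (0.84–1.31). *S100a11* was at 225 and 148 CPM, a log2 ratio of 0.60 (0.37–0.83), and *S100a10* at 392 and 317 CPM, a log2 ratio of 0.30 (0.13–0.47). Thus 3 of 6 genes were at least 1.5-fold higher and 0 lower, beside 2.14% and 3.5% of all genes tested. *Ccr2* itself was higher in YFP+ cells, at 124 CPM (YFP−) and 292 CPM (YFP+), a log2 ratio of 1.23 (1.05–1.40). Nothing is read from the counts of genes in this or the other splits, since the 6 genes were chosen with earlier results of these data known.

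In YFP− cells, *S100a4* was at 157 CPM with and 41.5 CPM without a *Ccr2* UMI, a log2 ratio of 1.89 (0.94–2.72), and *S100a6* at 385 and 151 CPM, a log2 ratio of 1.34 (0.78–1.87). Here 3 of 6 genes were at least 1.5-fold higher and 0 lower, beside 24.9% and 17.1% of all genes tested, in only 33 cells with a *Ccr2* UMI. Among cells without a *Ccr2* UMI after thinning, the ratio between the libraries was 1.37 (1.06–1.68) for *S100a4* and 1.12 (0.96–1.29) for *S100a6*. Among cells with one, it was 0.86 (0.35–1.42) for *S100a6* and 0.56 (−0.25 to 1.48) for *S100a4*. The difference between these ratios was not tested. A *Ccr2* UMI was present in 3.16% of YFP− and 12.1% of YFP+ cells after thinning, and in 9.86% and 25.1% before it. The cells without one thus included cells that had lost theirs in thinning, and the ratio is not one among *Ccr2*-negative cells. Barcodes made only of free RNA would show a *Ccr2* UMI in 6.28% (YFP−) and 10.8% (YFP+) of cases. The YFP− share after thinning lay below that value, while the YFP+ share, with an interval of 11.1–13.1%, lay above it. In the YFP+ library *Ccr2* was also higher in cells than in free RNA, a log2 ratio of 0.34 (0.20–0.49). Which of the cells with a *Ccr2* UMI express the gene was not tested, so they are not read as cells that express it.

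*Retnla*, a secreted protein of alternatively activated macrophages, also went with higher *S100a6*, *S100a4* and *S100a10*. It was at 9472 CPM in cluster 7, where *Ccr2* was at 73.4 CPM, and at 122 to 1611 CPM in the other clusters. Free RNA held *Retnla* at 1504 CPM (YFP−) and 1725 CPM (YFP+), above the 618 and 1043 CPM of cells. The part of cluster 7 and of free RNA in this split was not tested. In YFP− cells, *S100a6* was at 477 CPM with and 133 CPM without a *Retnla* UMI, a log2 ratio of 1.84 (1.48–2.18), *S100a4* at 161 and 35.8 CPM, and *S100a10* at 477 and 239 CPM, a log2 ratio of 0.99 (0.65–1.32). In YFP+ cells the log2 ratios were 1.19 (1.06–1.32) for *S100a6*, 1.40 (1.18–1.63) for *S100a4* and 0.49 (0.32–0.66) for *S100a10*. In YFP− cells, 3 of 6 genes were at least 1.5-fold higher and 1 lower, beside 15.6% and 13.6% of all genes, and in YFP+ cells 2 were higher and 0 lower, beside 2.69% and 3.87%. The lower one was *S100a1*, at 75.1 and 124 CPM, with a log2 ratio of −0.72 whose interval held 0 (−1.59 to 0.05).

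*Lyve1*, the hyaluronan receptor of perivascular macrophages, went with lower levels of some of these genes. In YFP+ cells with a *Lyve1* UMI, *S100a6* was at 243 CPM against 390.0 CPM without, a log2 ratio of −0.68 (−0.93 to −0.44), *S100a4* at 85.4 and 128 CPM, a log2 ratio of −0.58 (−1.01 to −0.17), and *S100a11* at 116 and 161 CPM. *S100a1* was higher, at 162 and 118 CPM, a log2 ratio of 0.46 (0.14–0.77), as was *S100a10*, at 379 and 322 CPM, a log2 ratio of 0.23 (0.03–0.43). *S100a13* was at 201 and 199 CPM, a log2 ratio of 0.02 (−0.27 to 0.29). In YFP+ cells 0 of 6 genes were at least 1.5-fold higher and 1 lower, beside 4.56% and 3.46% of all genes. In YFP− cells there were 0 in either direction, beside 9.62% and 7.52%, and the intervals of all 6 genes held 0. Cluster 7 held summed perivascular resident markers, *Lyve1* among them, at 12607 CPM against 7561 CPM in other cells. Yet it was high in *S100a6* (578 CPM), *S100a4* (303 CPM) and *S100a10* (872 CPM). The part of the clusters in the *Lyve1* split was not tested. A UMI of *Mki67*, *Top2a*, *Birc5*, *Cdk1* or *Ccna2* marked 54 YFP+ cells, in which *S100a4* was at 259 CPM against 121 CPM and *S100a10* at 639.6 CPM against 319.8 CPM, log2 ratios of 1.09 (0.58–1.55) and 0.998 (0.68–1.30). Of the 6 genes, 2 were at least 1.5-fold higher and 1 lower, beside 28.2% and 12.7% of all genes, a share near the background. The lower gene was *S100a1*, at 68.0 CPM from 10 UMIs against 123 CPM. Its log2 ratio of −0.84 had an interval that held 0 (−1.89 to 0.03). In the 15 such YFP− cells 0 genes passed in either direction, beside 37% and 19.6%.

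**Figure D4:**
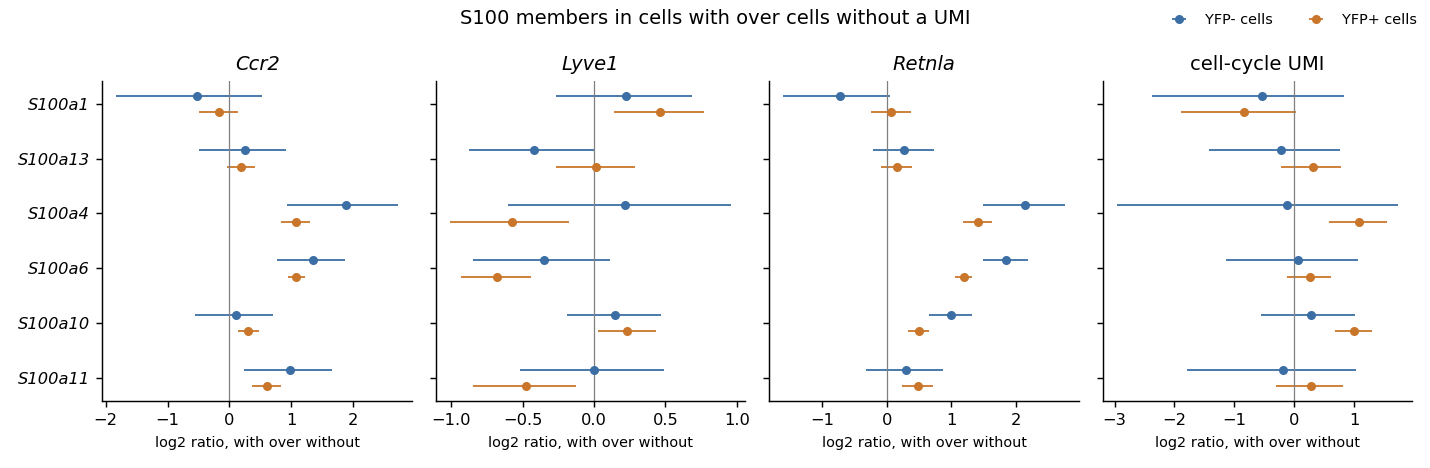
Log2 ratio of CPM (horizontal axis, own range in each panel) in cells with over cells without a UMI of *Ccr2*, *Lyve1*, *Retnla* or a cell-cycle gene, for each S100 gene, with 95% counting intervals. *S100a4* and *S100a6* lie to the right of 0 for *Ccr2* and *Retnla* in both libraries and to the left for *Lyve1* in YFP+ cells.

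Across cells, *S100a4* and *S100a6* were found together more often than the rest. Pearson's r of their thinned log counts was 0.18 over 1045 YFP− cells and 0.23 over 4053 YFP+ cells. A UMI of both was present in 8 YFP− cells, where independence gives 1.21, and in 77 YFP+ cells, where it gives 23.5. For *S100a6* and *S100a10* r was 0.06 and 0.16, with 129 YFP+ cells holding both against 65.4. For *S100a10* and *S100a11*, neighbours in the second block, r was 0.07 and 0.06. For *S100a4* and *S100a11*, r was 0.13 in YFP− cells, from 7 cells with both against 1.39, and 0.04 in YFP+ cells. The first fell to 0.04 without cluster 10 and cells with markers of other types. The head-to-head pair *S100a1* and *S100a13* had r of −0.06 and −0.01, with 18 YFP+ cells holding both against 20.1. Cells of a library share depth, free RNA and cluster, and at these counts an r under 0.1 is no finding.

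**Figure D5:**
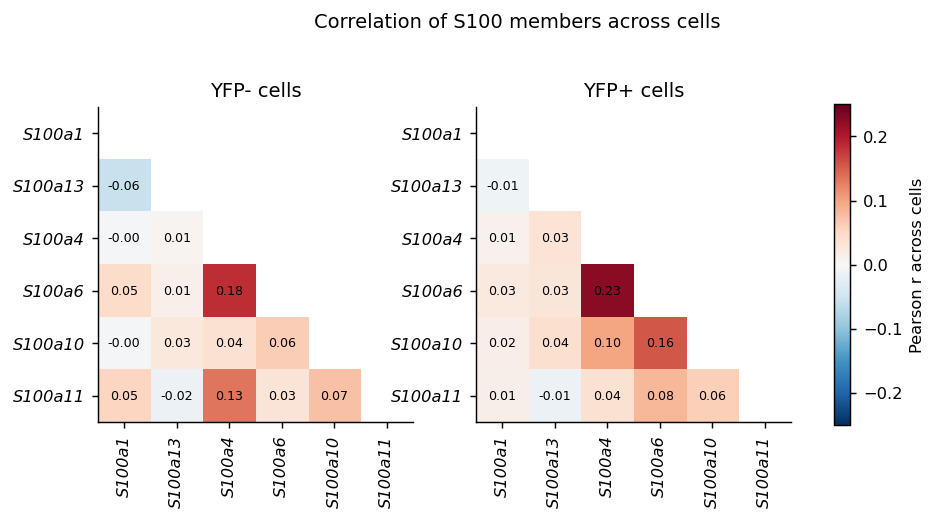
Pearson r (colour and number) of each pair of S100 genes across 1045 YFP− and 4053 YFP+ cells, from log counts of cells thinned to 500 UMIs. *S100a4* with *S100a6* is the darkest square in both libraries, at 0.18 and 0.23.

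Among 2442 other genes with at least 50 CPM in both libraries, those most like *S100a6* included *Cd9*, *Sparc*, *Mbp* and *Crip1*, with r of 0.25, 0.23, 0.27 and 0.20 in YFP− and 0.18, 0.19, 0.15 and 0.17 in YFP+ cells. *Mbp* encodes myelin basic protein. Schwann cell markers summed to 711 CPM (YFP−) and 656 CPM (YFP+), and to 3352 and 5345 CPM in free RNA. Their part in the *S100a6* level was not tested beyond the values without these cells. Without cluster 9, *Mbp* fell to r of −0.00 in YFP− and 0.02 in YFP+ cells. *Crip1*, a small LIM protein (0.24 and 0.18), *Retnla* (0.16 and 0.15) and *Capg*, which caps actin filaments (0.14 and 0.13), then led the genes with r of at least 0.1 in both libraries. *Emp1*, at 0.22 and 0.09, had a mean r between those of *Retnla* and *Capg* but missed that limit. *Crip1* was also the gene most like *S100a10*, with r of 0.16 in both libraries. For *S100a4*, *Emp1* reached 0.12 and 0.10 with all cells. Without cluster 9, *Emp1* stood at 0.13 and 0.097 and missed the limit, while *Ccr2* reached 0.13 and 0.101. With all cells, no gene reached 0.1 in both libraries for *S100a1*, *S100a13* or *S100a11*.

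The rest of the family was nearly absent from these cells. *S100a5*, *S100a8*, *S100a9*, *S100a14*, *S100a2* and *S100z* had 0 UMIs in the cells of both libraries, where the limit of 3 UMIs stands at 1.24 CPM (YFP−) and 0.445 CPM (YFP+) and the upper end of the exact Poisson interval at 1.53 and 0.547 CPM, so the calprotectin genes were not detectable. *S100a3* and *S100g* had 1 UMI each, *S100a7a* had 2 and 3, and *S100a16* had 9 and 15. *S100b* had 13.2 CPM for YFP− and 16.01 CPM for YFP+, against 124 and 211 CPM in free RNA. The pseudogene *S100a11-ps* had 0 and 1 UMIs, and whether the counting gave reads of it to *S100a11* was not tested.

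Partners of the S100 proteins also differed between the libraries in part. *Anxa2*, the partner of *S100a10*, had 32.3 CPM (25.5–40.3) for YFP− and 53.5 CPM (48.1–59.3) for YFP+, a log2 ratio of 0.71 (0.37–1.07), and *Anxa1*, the partner of *S100a11*, was at 17.8 CPM (12.9–24.0) and 34.1 CPM (29.8–38.8), a log2 ratio of 0.90 (0.45–1.38). *Myh9*, the myosin bound by *S100a4*, had a log2 ratio of 0.58 (0.36–0.81), *Anxa5* of 0.39 (0.27–0.50) and *Ahnak*, which binds the *S100a10* complex, of 0.34 (0.22–0.46). *Anxa6* and *Cacybp*, partners of *S100a6* as *Anxa5* is, had intervals that held 0. Across cells *Anxa2* had r of −0.01 and 0.05 with *S100a10*, and of 0.17 and 0.19 with *S100a6*. Like *S100a6*, it was highest in cluster 9 (273 CPM), and it stood at 122 CPM in cluster 7 and 113 CPM in cluster 3. In free RNA *Anxa2* was at 71.5 CPM (YFP−) and 93.9 CPM (YFP+), above its level in the cells of both libraries. The part of free RNA in its level was not tested.

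Receptors and cargo showed no common direction. *Tlr4*, a receptor for calprotectin, was lower in YFP+ cells, at 43.8 and 31.3 CPM, a log2 ratio of −0.47 (−0.81 to −0.13), as was *Bsg*, at 297 and 251 CPM, a log2 ratio of −0.24 (−0.37 to −0.12). *Cd36* was at 556 and 632 CPM, a log2 ratio of 0.18 (0.10–0.27). *Ager*, which encodes the receptor RAGE, had 1 UMI in each library, and *Il1a*, a cargo of *S100a13*, had 0 and 2. *Fgf1*, another cargo, had 0 and 19 UMIs in cells but was at 12.1 and 15.7 CPM in free RNA. The intervals of *Plau* and *Plaur* held 0, and *Plat* had 0 and 5 UMIs.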

How the data were processed

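Single-cell RNA-seq of YFP− and YFP+ sciatic nerve macrophages was analysed, with 1 library each. The authors deposited UMI counts for each gene in each barcode, from 10× Chromium v2 reads mapped to GRCm38. The submitters' processing notes name Cell Ranger 3.0.2 and Seurat 2.2.0, while the methods of the paper name another Cell Ranger version. The annotation release and the treatment of reads that match several genes are not given in the sources used here. No filter on cells had been applied.

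Barcodes with at least 500 UMIs and 200 genes were kept, and doublets were not removed, since the methods name no such step. Counts were summed over cells and expressed as CPM, and log2 ratios used a pseudocount of 1 CPM. No test was made, because each group is 1 library. For shares and correlations each cell was thinned to 500 UMIs without replacement. Splits used the thinned UMIs to place cells in a class and all UMIs of the cells for the levels. Clusters were made with scanpy 1.11.5 and leidenalg 0.10.2 (counts scaled to 10000, genes in at least 3 cells, 2000 variable genes, 20 components, 20 neighbours, resolution 0.8, seed 0) with every S100 gene left out. The other steps used scipy 1.17.1, pandas 2.3.3, numpy 2.4.6 and matplotlib 3.10.9 under Python 3.11.15. The calculations were tested on simulated data. Positions are those of GENCODE M21, which lists 99.8% of the deposited gene identifiers.

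The members, gene lists and alternatives were chosen with earlier results of these data known. Genes named are the 6 members, fixed lists of other S100 genes and of partners, the genes of the splits, marker lists, up to 5 leading genes per cluster, and up to 5 genes per member with the highest mean r, where r was at least 0.1 in both libraries. Protein sequences and bulk libraries were not used here. A gene that this rule names is not reported here.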

Additional observations from a re-analysis of the deposited data

How the results depend on the processing

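No paired analysis was possible because each group is 1 library and the labels give no replicate numbers. The alternatives were a minimum of 1000 UMIs, the top barcodes in the numbers of cells the study captured, and at most 10% mitochondrial UMIs. Others were equal weight per cell, thinning, a median ratio of 0, 10% free RNA taken away and a pseudocount of 0.1 CPM. The rest left out cells with markers of other types, shared barcodes, or cells with a *Ccr2* UMI after thinning. Cells whose *Ccr2* UMIs were all lost in thinning stayed in. Of 102 ratios between the libraries, with the choices of the next paragraph included, 81 stayed within the counting interval. Equal weight per cell gave 1.14 for *S100a4* and 1.03 for *S100a6*. Thinning gave 0.34 for *S100a1*, −0.30 for *S100a13*, 0.53 for *S100a10* and 0.12 for *S100a11*.

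The following were chosen after seeing the data. With clusters weighted alike, *S100a4* was at 1.09 and *S100a6* at 0.70. In cells with 500 to 1000 UMIs the ratio of *S100a6* turned to −0.16, with 0.089 for *S100a4*, 0.46 for *S100a1* and −0.47 for *S100a13*, and the number of genes at least 1.5-fold higher fell from 2 to 0. At 1000 to 2000 UMIs, *S100a1* was at 0.38 and *S100a11* at 0.16. At 2000 to 4000 UMIs, *S100a4* was at 1.77 and *S100a6* at 1.43. At 4000 UMIs or more, the values were −0.52 (*S100a1*), 1.89 (*S100a4*), 1.75 (*S100a6*), 0.57 (*S100a10*) and 0.81 (*S100a11*). The cause was not tested.

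The log2 ratio of the highest over the lowest cluster went to 4.71 (*S100a4*), 4.21 (*S100a6*) and 2.07 (*S100a10*) at a resolution of 1.2, and to 3.08 (*S100a4*), 1.68 (*S100a10*) and 2.77 (*S100a11*) when clustered on thinned UMIs. Without cluster 9, a choice made after seeing the data, it was 2.83 (*S100a6*) and 1.13 (*S100a11*). Of 24 *Ccr2* splits 2 moved, both for *S100a6*, from 1.34 to 2.47 in YFP− and from 1.08 to 1.41 in YFP+ cells with at least 1000 UMIs. That of *S100a13* in YFP− cells, whose interval held 0, went from 0.25 to −0.07 when levels were read from UMIs not used for the split. Of 48 correlations 8 moved. With 1000 UMIs 7 of them were higher, such as *S100a4* with *S100a6*, from 0.18 to 0.34 in YFP− cells, and *S100a4* with *S100a11* in YFP− cells was lower.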

Other observations

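*Apoe*, a lipid carrier, had the most negative mean r over both libraries with *S100a6* among 2442 genes. Its r was −0.19 in YFP− and −0.21 in YFP+ cells, and its rank within each library is not given. The same held for *S100a4*, at −0.05 and −0.11, and for *S100a10*, at −0.07 and −0.11. The YFP− values of *S100a4* and *S100a10* are under 0.1 in size and are not read. *Apoe* was chosen after its values were seen. *Apoe* stood at 17642 CPM in cluster 3, 15714 CPM in cluster 7 and 11842 CPM in cluster 10, where *S100a6* was high, and at 28544 CPM in cluster 2 and 25959 CPM in cluster 5, where it was low. Cluster 1 held *Apoe* near the level of cluster 3, at 19028 CPM, but *S100a6* at only 234 CPM (209–260). Without cluster 9 the r with *S100a6* was −0.16 and −0.18. Thinned cells have a fixed number of UMIs, so an abundant gene and the rest share that total. The part of this in the r of *Apoe* was not tested.

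The following ratios within clusters were chosen after their values were seen. *S100a1* was higher in YFP+ cells within cluster 7, from 95.6 CPM for YFP− to 228 CPM for YFP+, a log2 ratio of 1.25 (0.31–2.29). It had 3 UMIs in the YFP− cells and 20 UMIs in the YFP+ cells of cluster 8, led by *Irf7* and *Ifit2*, a log2 ratio of 1.82 (0.09–4.06). In the other 8 clusters its intervals held 0. *S100a13* was lower in YFP+ cells of cluster 6, with a log2 ratio of −0.62 (−1.23 to −0.01).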
